A study of Mus musculus with 5 samples.

Results

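The peaks described here lie on sequences other than chromosomes 1 to 19, X and Y in 5 CUT&RUN peak lists for BCLAF1, a chromatin and mRNA-processing factor of the nucleus. They were chosen by the sequence name alone, and they numbered 505 of the 7045 deposited peaks. Of these, 487 lay on 18 scaffolds, which are pieces of the mouse assembly without a place on a chromosome, and 18 lay on the mitochondrial sequence (MT). The assembly assigns 6 of the 18 scaffolds to a chromosome without giving a position, and these held 17 of the peaks. The other 12 scaffolds are unplaced in the strict sense.

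In CUT&RUN an antibody brings a nuclease to chromatin, and the released DNA is sequenced. All 5 libraries were made with an antibody against BCLAF1 from 50000 sorted cells each. The haematopoietic stem cell (HSC) libraries came from E17.5 fetal liver (E, embryonic day), from cells pooled over 24 to 26 embryos, 2 of them wild-type (WT) and 1 knockout (KO). The sources used here do not give the KO allele or any Cre driver. The other 2 libraries were made from wild-type LSK progenitors (no lineage markers, with Sca1 and Kit on the surface) pooled from 2 to 3 mice, 1 of them native and the other after 2 min in 0.1% formaldehyde. Below, the HSC libraries are called WT 1, WT 2 and KO, and the LSK libraries native and fixed. For the LSK cells the protocol names adult bone marrow and the tissue label names fetal liver at E17.5, so their source is uncertain. The labels do not say whether WT 1 and WT 2 are separate pools, so the spread between them may be technical. Peak lists hold no expression values, and neither the cell types nor the KO label could be checked against marker genes.

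Scaffolds stay unplaced mostly because they consist of repeats, among them satellite DNA, the tandem repeats of centromeric heterochromatin. The major satellite of the mouse makes up large blocks next to the centromeres, of which a reference assembly holds only small pieces. Reads from many genomic copies can therefore fall on the few copies that the assembly has. Mitochondrial DNA is present in many copies per cell and carries no nucleosomes, so free nuclease can cut it without any bound target. Both kinds of sequence are known sources of background in nuclease-based assays.

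A single scaffold, JH584304.1, which is assigned to no chromosome, held 353 of the 505 peaks (69.9%), from 56.9% of them in KO to 82.3% in WT 2. It held 74 in WT 1, 65 in WT 2, 111 in KO, 95 in native and 8 in fixed. The other 17 scaffolds together held 134 peaks. Next in number came GL456392.1 with 22 peaks over the 5 lists, GL456383.1 with 17, GL456389.1 and GL456390.1 with 15 each, GL456370.1 with 13, GL456396.1 with 12 and GL456367.1 with 11. JH584304.1, GL456392.1, GL456389.1 and GL456396.1 had a peak in all 5 lists. The remaining 10 scaffolds had between 1 and 8 peaks each.

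As a share of its list, this class of peaks was 17.8% in WT 1 (97 of 544 peaks, exact 95% binomial interval 14.7 to 21.3) and 13.0% in WT 2 (79 of 607, 10.4 to 16.0). It was 4.14% in KO (195 of 4712, 3.59 to 4.75), 13.8% in native (123 of 893, 11.6 to 16.2) and 3.81% in fixed (11 of 289, 1.92 to 6.71). The intervals cover counting error only and treat neighbouring peaks as independent. The KO list was by far the longest. When every list was held to its 289 strongest peaks by p-value, the number in the shortest list, the share was 29.1% in WT 1, 26.6% in WT 2, 32.2% in KO and 34.3% in native. The KO value then lay between those of the WT and native lists, and the fixed list, which this leaves as it was, had the lowest share.

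**Figure D1:**
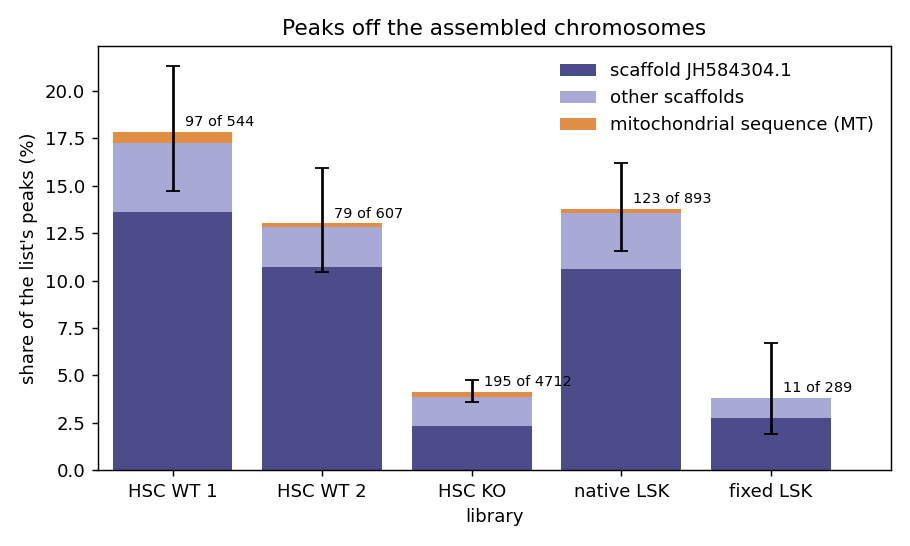
Share of each list's peaks (y axis, %) that lay on scaffold JH584304.1, on the other scaffolds and on MT, for the 5 libraries (x axis); error bars are exact 95% binomial intervals of the whole share. JH584304.1 makes up most of each bar, and the bars of KO (4.14%) and fixed (3.81%) are the lowest.

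Peaks on JH584304.1 lay close together. Over the 114 kb between the first and the last peak of any list, the density was 649 peaks per Mb in WT 1, 569.7 in WT 2, 973 in KO, 833 in native and 70.1 in fixed. On the chromosomes, measured from the first to the last peak of each, the densities were 0.168, 0.199, 1.70, 0.290 and 0.105 peaks per Mb in the same order of lists. Within the scaffold the peaks were not spread evenly. All peaks of WT 2 and fixed lay past position 68000. Before it, KO had 6 peaks and WT 1 and native had 1 each. The median distance between neighbouring summits was 533 bp in WT 1, 558 bp in WT 2, 401 bp in KO and 402 bp in native, over all summits of the scaffold.

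The deposited enrichments on JH584304.1 were low although its read numbers were high. Enrichment is deposited by the authors per peak, and its values can be solved as the reads at the summit over the local background with a pseudocount of 1 on both. Its median on this scaffold was 3.13 in WT 1, 3.32 in WT 2, 2.63 in KO and 3.00 in native, with single peaks between 1.42 and 8.38 in these 4 lists. In fixed the median of the 8 peaks was 7.99. Chromosomal peaks had medians of 9.18, 5.80, 7.45, 8.91 and 4.84 in the order WT 1, WT 2, KO, native and fixed. The other scaffolds had medians of 15.6, 18.6, 7.61, 11.1 and 44.5. The pseudocount lowers the enrichment most where the local background is low. Reads over the local background without it, a measure added after seeing the data, were therefore compared too. Their medians were 3.14, 3.34, 2.63, 3.01 and 10.4 on JH584304.1 and 21.4, 37.5, 9.55, 21.4 and 119 on the other scaffolds. On the chromosomes they were 23.9, 36.5, 13.1, 27.5 and 135. JH584304.1 was thus the lowest of these 3 classes in all 5 lists on this measure, while the other scaffolds lay above the chromosomes by enrichment in all 5 lists but by reads over background in WT 2 only.

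Reads and local background were recovered from each peak's enrichment and p-value, and all 505 peaks gave a single whole read number. At JH584304.1 the median was 733 reads over a local background of 254 reads per position in WT 1, and 330 over 103 in WT 2. It was 1446 over 587 in KO, 710 over 257 in native and 32 over 3.95 in fixed. The most common background of each list, taken as that of the genome as a whole, was 0.339, 0.117, 1.15, 0.327 and 0.022 reads per position. Against it, the median local background on JH584304.1 was 749 times as high in WT 1, 883 times in WT 2, 512 times in KO, 786 times in native and 179 times in fixed. The median at chromosomal peaks lay between 1.00 and 1.47 times the genome-wide value in the 5 lists. Whether the caller took the local background from the library itself or from a control is not stated in the labels.

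**Figure D2:**
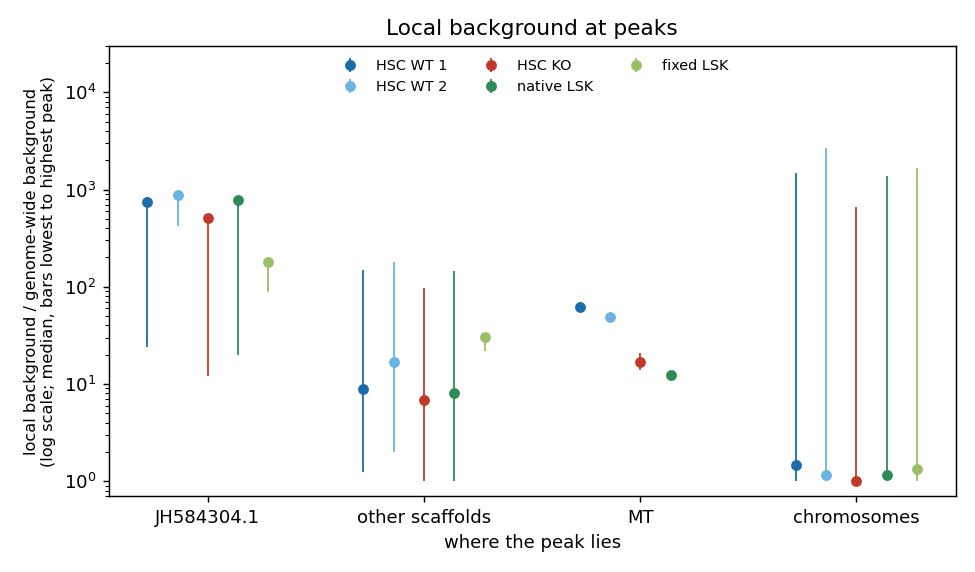
Local background at peaks as a multiple of the list's genome-wide background (y axis, log scale) for peaks on JH584304.1, the other scaffolds, MT and the chromosomes (x axis); points are medians and bars run from the lowest to the highest peak. JH584304.1 lies highest in every list by its median (179 to 883), and MT lies higher in the WT lists (62.3 and 49.0) than in KO (16.7) and native (12.4).

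The lists chose different numbers of regions, so the same regions were compared next. In JH584304.1, 62 regions were called in both WT lists, in KO and in native. Over these, the median number of summit reads was 2299 times the genome-wide background in WT 1, 2765 times in WT 2, 1396 times in KO and 2438 times in native. KO was the lowest of the 4 by this multiple and lay below both WT libraries. By reads alone KO was the highest, with medians of 779, 323.5, 1601 and 798 in the same order. With 1 KO library neither order has a test. Over the 8 regions of this scaffold found in all 5 lists the multiples were 3666, 4197, 2031 and 3679 in the same order, and 1455 in fixed. The order of the 62 regions by reads was much alike in all pairs of libraries, with Spearman's rho from 0.865 (WT 2 and KO) to 0.974 (WT 1 and native). These points share their positions and the mapping of their sequence.

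**Figure D3:**
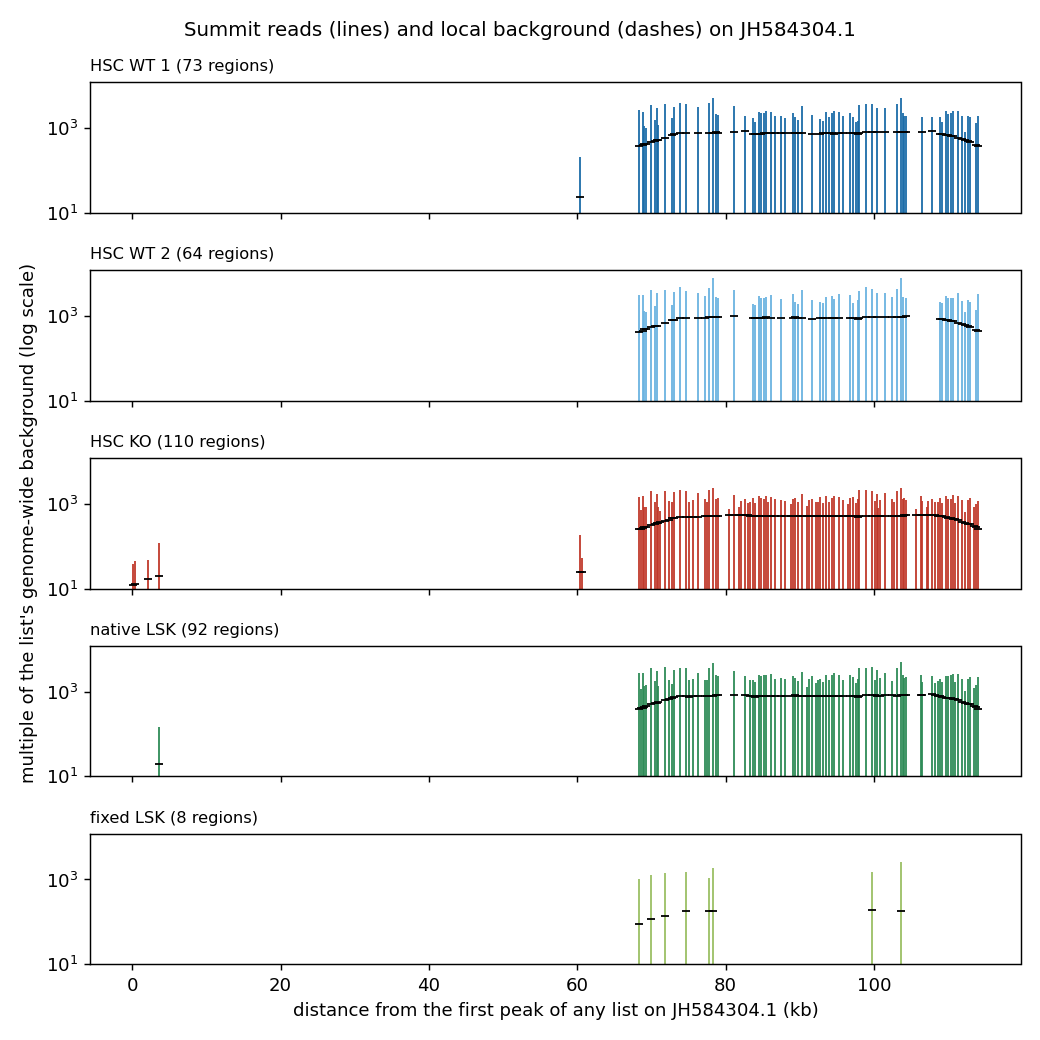
Merged regions along JH584304.1, by distance from the first peak of any list (x axis, kb), with summit reads (vertical lines) and local background (black dashes) as multiples of each list's genome-wide background (y axis, log scale). In WT 1, WT 2, KO and native the regions crowd between 68551 and 114439, and fixed shows 8 regions spread over part of that stretch.

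The summits on JH584304.1 repeated at fixed distances. In KO 26 of the 50 summits that could have a partner 25248 bp further on had one within 5 bp. In native it was 20 of 40 at 25249 bp, in WT 1 14 of 32 at 25248 bp, and in WT 2 11 of 28 at 25244 bp. No other shift between 200 and 45000 bp had as many partners in these 4 lists: the next highest counts were 16, 13, 10 and 8 in the same order, and the mean over all shifts was between 0.509 and 1.38. Among the next shifts were 9120 bp and 16132 bp in WT 1, 16132 bp and 9123 bp in KO, and 9118 bp and 16127 bp in native. The fixed list, with 8 summits, gave no shift with more than 1 partner.

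**Figure D4:**
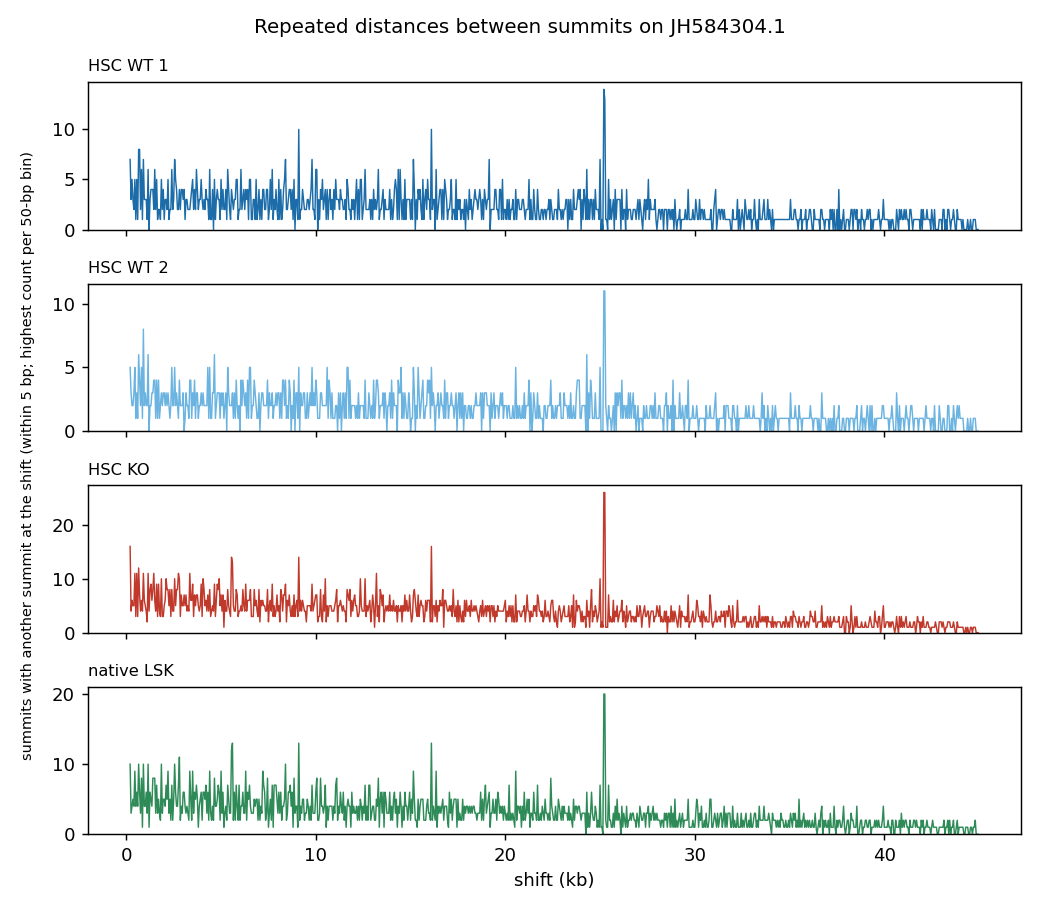
Number of summits on JH584304.1 that have another summit at a given shift (y axis, within 5 bp, highest count in each 50-bp bin) against the shift (x axis, kb), for 4 lists. A single spike, at 25244 to 25249 bp, stands above all others in each list (14, 11, 26 and 20 partners from top to bottom).

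Most partners at this distance carried nearly equal read numbers. For summit pairs 25248 bp apart, the reads of the second over those of the first had a median of 0.975 in WT 1 (14 pairs), 0.995 in WT 2 (10 pairs), 0.994 in KO (26 pairs) and 0.993 in native (20 pairs). Within 10% of each other were 12, 10, 22 and 17 of these pairs. Spearman's rho between the reads of the first and the second was 0.618, 0.966, 0.782 and 0.578 in the same order. No values for pairs at other distances are given here for comparison. The strongest pair lay at 78583 to 78765 and 103831 to 104014, taken over the 5 lists. It had 1707 and 1753 reads in WT 1, 912 and 920 in WT 2, 2680 and 2665 in KO, 1581 and 1612 in native and 42 and 58 in fixed. A few pairs were unequal in the same way in several libraries. At the pair starting at 70269 and 95543 in WT 1 the reads were 1189 and 827, and the same pair had 2298 and 1661 in KO and 1182 and 803 in native. The pair at 81411 and 106811 had 1106 and 615 in WT 1, with 1888 and 1303 in KO and 1001 and 539 in native. At 75421 and 100657 the second was higher, with 1294 and 1970 in KO and 626 and 1072 in native.

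**Figure D5:**
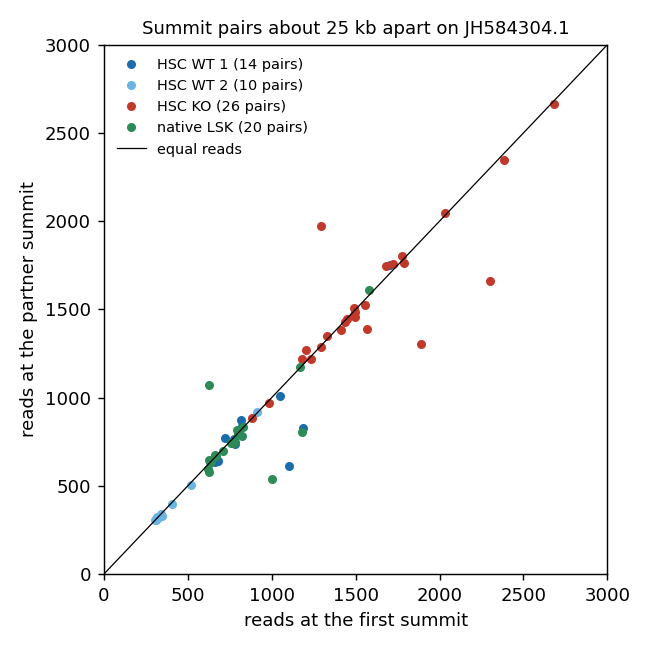
Reads at the summits of pairs 25248 bp apart on JH584304.1, the first summit on the x axis and its partner on the y axis, 1 point per pair, coloured by list; the line marks equal reads. Most points lie near the line, and 9 of the 70 pairs differ by over 10%.

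A shorter period was also sought. A scan of periods from 150 to 400 bp over the summits past position 68000 gave the strongest period at 233.8 bp in WT 1, 233.6 bp in KO and 233.7 bp in native. In WT 2 it was 245.2 bp, and the 8 summits of fixed are too few for such a scan. The concentration at these periods was moderate, with a mean resultant length of 0.296 to 0.373 where 1 is perfect and the median over periods was 0.0780 to 0.105. The strongest period of a scan lies above its median by construction, and no scan of random positions is given here, so whether a period is present was not tested. The lists share many of these positions, so their like periods are not independent. This scan was added after the summits had been seen. The mouse major satellite is a tandem repeat with a unit of similar length, but no repeat annotation and no genome sequence was used here, so whether JH584304.1 holds it was not tested.

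Outside JH584304.1 a few regions were among the strongest peaks of each list. The region of GL456396.1 from 11929 to 12070 had enrichments of 88.8 in WT 1, 96.3 in WT 2, 70.0 in KO, 82.3 in native and 44.5 in fixed. It ranked 4 by enrichment among all peaks of WT 1, 3 in WT 2 and 6 in native. Its reads were 1940, 1173, 2699, 1578 and 65 in the 5 libraries. The region of GL456389.1 from 10564 to 10819 had enrichments of 67.4, 72.3, 49.8, 62.1 and 48.0, the last being the highest of the fixed list on these sequences. That of GL456392.1 from 22096 to 22394 had 35.1, 35.9, 26.4, 31.6 and 22.2. By enrichment, KO was lower than both WT libraries and native at each of these 3 regions, and fixed lower still. Without the pseudocount, the reads over background at the GL456396.1 region were 93.0 in WT 1, 105 in WT 2, 71.8 in KO, 86.7 in native and 134 in fixed. At all 3 regions KO was then the lowest of the 5 libraries and fixed the highest.

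The 8 regions of JH584304.1 called in all 5 lists were weaker by enrichment. The first of them along the scaffold, from 68551 to 68666, had enrichments of 7.22 in WT 1, 7.19 in WT 2, 5.76 in KO, 7.08 in native and 8.18 in fixed, from 917, 360, 1676, 925 and 23 reads. From 72138 to 72288 the values were 6.11, 5.89, 4.98, 6.13 and 7.85, and from 99959 to 100099 they were 4.57, 4.46, 3.80, 4.55 and 6.67. Fixed had the highest enrichment and the fewest reads in all 8, and KO the lowest enrichment and the most reads; the order of KO and fixed was the same without the pseudocount. Among the 50 strongest peaks of each list by enrichment, 7 in WT 1, 7 in WT 2, 5 in KO, 5 in native and 4 in fixed lay on scaffolds, and 1 of these, in fixed, on JH584304.1. Ranked by p-value, 14, 12, 17, 12 and 5 did, with 8, 6, 11, 7 and 2 on JH584304.1, where high read numbers met high background.

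The wide region next to the last of these, on GL456392.1 from 22490 to 23541, was 1 KO peak of 1052 bp and 2 peaks each in WT 1 and WT 2 and 3 in native. Its highest enrichment was 19.7 in WT 1, 18.6 in WT 2, 18.8 in KO and 19.8 in native. At the very start of GL456370.1, from 10 to 162, lay the strongest KO peak of the whole class, with an enrichment of 86.6 from 499 reads. The same region had 65.9 in WT 1, 34.8 in WT 2 and 65.9 in native, from 177, 50 and 172 reads. Without the pseudocount the reads over background here were 104, 107, 105 and 106 in WT 1, WT 2, KO and native, so the spread in enrichment was not seen in this measure. GL456392.1 from 723 to 890 had 76.2, 58.8, 64.2 and 54.2 in WT 1, WT 2, KO and native. GL456216.1, assigned to chromosome 4, had a single region, from 49124 to 49499, called in these 4 lists with 18.0, 12.7, 22.3 and 17.48.

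The scaffolds GL456383.1, GL456390.1 and GL456367.1 held weaker peaks. The highest enrichment of any list was 18.8 on GL456383.1 and 11.6 on GL456367.1, both in KO, and 30.4 on GL456390.1 in WT 1. They had 11, 7 and 8 peaks in KO, 3, 3 and 1 in WT 1, and 1, 2 and 0 in WT 2, from lists of 4712, 544 and 607 peaks. The 3 scaffolds assigned to chromosome Y were JH584300.1, JH584301.1 and JH584303.1. They held 9 of the 4712 KO peaks, 2 of the 893 native peaks and 0 of the 544 and 607 WT peaks, at enrichments of 5.12 to 20.5. Counts this small in lists of such unequal length do not tell the lists apart. The labels do not give the sex of the pooled embryos and mice. The KO background was the highest of the 5 libraries, and its part in these counts was not tested. GL456210.1, GL456368.1, GL456372.1 and JH584292.1, together with JH584300.1 and JH584303.1, had peaks in KO alone, the longest list, with 1 to 3 peaks each.

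Mitochondrial peaks were few in number and weak, though dense for so short a sequence. They gathered in the rRNA genes and in the stretch past the last annotated gene, which holds the control region where replication and transcription of mitochondrial DNA start. There were 3 in WT 1, 1 in WT 2, 12 in KO, 2 in native and 0 in fixed. Their enrichments ran from 2.15 to 5.20. Over their span the density was 186 peaks per Mb in WT 1, 61.9 in WT 2, 743 in KO and 124 in native. This was 1103, 311, 437 and 427 times the chromosomal density in the same order. Of the 18 summits, 5 lay past position 15422, the end of the last gene in the table of 37 mitochondrial genes: 1 in each WT list and 3 in KO. In mt-Rnr1 and mt-Rnr2, the genes of the small and large mitochondrial ribosomal RNA, lay 2 summits of WT 1, 5 of KO and 2 of native. None of the 13 mitochondrial protein-coding genes had a peak in the WT and LSK lists. In KO 3 had one, namely ND5 and ND6, which encode subunits of respiratory complex I, and CYTB, a subunit of complex III. The peak on ND6 had its summit in the neighbouring TrnE, a tRNA gene.

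The region past the last gene was the one shared by the most lists. WT 1 had a peak from 15349 to 15601 with an enrichment of 3.66 from 79 reads, and WT 2 from 15469 to 15585 with 5.20 from 34 reads. KO had one from 15463 to 15772 with 3.92 from 73 reads, and the LSK lists had none there. Their summits, at 15525, 15524 and 15532, lay within 8 bp of each other. Here the local background was 61.5 times the genome-wide one in WT 1, 49.0 times in WT 2 and 15.6 times in KO. In mt-Rnr1, WT 1 had a peak from 660 to 944 and KO from 697 to 835, with local backgrounds of 62.3 and 15.5 times the genome-wide value. The 2 native peaks in this gene, from 171 to 263 and from 519 to 587, had 11.97 and 12.8 times. Over all mitochondrial peaks the multiples were 61.5 to 69.2 in WT 1 and 13.8 to 20.8 in the 12 KO peaks, so the KO range lay below WT 1 and WT 2 (49.0) and just above native. In reads per position, these local backgrounds were 15.9 to 23.9 in KO, 20.8 to 23.5 in WT 1, 5.73 in WT 2 and 3.92 to 4.21 in native. By reads the KO range overlapped that of WT 1 and lay above WT 2 and native. Its median was 19.1, against 21.1 in WT 1. KO was also lower than WT 1 past the last gene (17.9 against 20.8) and at the mt-Rnr1 peak they shared (17.7 against 21.1). The genome-wide value that divides these backgrounds was 1.15 in KO and 0.339 in WT 1. With 1 KO library the order by multiples has no test, and whether it reflects the genotype or the preparation of that library cannot be told apart.

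How far the lists shared these peaks was compared with the chromosomes. On JH584304.1, KO had 973 peaks per Mb, covering 13.2% of the span, against 1.70 per Mb on the chromosomes. These are averages over the 114 kb span. Of the 111 KO peaks, 105 lay between 68551 and 114439, so the crowding there was higher than the averages. Peaks so crowded overlap more often by position alone, and the shares below are not corrected for this. Of the 97 WT 1 peaks on scaffolds and MT, 96 shared at least 1 bp with a KO peak (99.0%), against 91.9% of all peaks of that list. In WT 2 it was 79 of 79, against 70.7% of all its peaks. Over both lists, 175 of 176 lay on a KO peak (99.4%, exact 95% interval 96.9 to 100.0), against 754 of 975 on the chromosomes (77.3%) and 80.7% of all. For native it was 122 of 123, against 86.5% of all. Between the WT lists, 74 of 97 WT 1 peaks lay on WT 2 peaks (76.3%, against 64.9% of all) and 75 of 79 WT 2 peaks on WT 1 peaks (94.9%, against 60.3% of all). By sequence, 62 of 74 WT 1 peaks on JH584304.1 lay on WT 2 peaks (83.8%), 11 of 20 on other scaffolds (55%) and 1 of 3 on MT, against 62.4% on the chromosomes. All 11 fixed peaks lay on native peaks (against 32.2% of all), while 11 of 123 native peaks lay on fixed ones (8.94%, against 10.2% of all).

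Against any other list, the share on scaffolds and MT was 99.0% in WT 1 (92.5% of all peaks), 100% in WT 2 (71.3%), 64.1% in KO (18.2%), 99.2% in native (86.9%) and 100% in fixed (38.8%). It was higher than on the chromosomes in 5 of 5 libraries, with means of 92.5% and 59.1% and a difference of 33.3 ± 23.1 percentage points (SD, n = 5). The exact two-sided sign-flip permutation test over libraries gave p = 0.0625, the smallest that 5 libraries allow, and 0.188 after adjustment over 3 such tests, so it did not pass. An overlap counts in both lists, so the 5 values are not independent. Nor are they corrected for the crowding of peaks on JH584304.1.

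By the deposited values, median enrichment was lower on scaffolds and MT than on the chromosomes in 4 of 5 libraries, at a mean of 4.37 against 7.24 (difference -2.87 ± 3.75, SD, n = 5; exact sign-flip permutation p = 0.188, adjusted 0.188). Without JH584304.1 the sign turned, to a mean difference of 10.8. As reads over background without the pseudocount, the median was lower on scaffolds and MT in 5 of 5 libraries (mean difference -42.2 ± 46.3, SD), and also without JH584304.1 (-8.36). Median width was 112 bp against 94.2 bp (difference 18.2 ± 14.3 bp, SD, n = 5; exact sign-flip permutation p = 0.125, adjusted 0.188). It was larger in 4 libraries and equal, at 92 bp, in fixed, and with lists of equal size the difference was -14.5 bp. With 5 libraries the smallest p of the sign-flip permutation test is 0.0625, so neither difference could pass it.

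Merged over the 5 lists, the 505 peaks formed 196 regions, of which 194 were called in KO (99.0%), against 4514 of 5029 regions on the chromosomes (89.8%). Called in 1 list alone were 72 (36.7%), against 85.3% on the chromosomes, and in 4 or 5 lists 72 (36.7%), against 5.07%. The crowding of peaks on JH584304.1 was not corrected for in these shares. On JH584304.1 all 110 regions were called in KO, 62 of them in at least 4 lists and 8 in all 5. No region was called in 2 or more lists without KO, and 8 of the 5029 chromosomal regions were. The 2 regions missing from KO, named after their values were seen, were GL456367.1 from 9395 to 9476 in WT 1, with an enrichment of 6.63 from 11 reads, and GL456387.1 from 4642 to 4710 in native, with 5.02 from 6 reads. KO alone had 70 regions (35.7%), against 3783 on the chromosomes (75.2%): 17 on JH584304.1 at a median enrichment of 1.98, 45 on other scaffolds at 6.54 and 8 on MT at 2.36. Regions shared by KO and another list had median KO enrichments of 2.69 on JH584304.1 (93 regions), 8.87 on other scaffolds (27) and 3.01 on MT (4).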

How the data were processed

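The authors deposited 1 narrowPeak list per library on build mm10, per the submitters' processing notes. Not given in the sources used here were the aligner, the peak caller, any control, and how duplicate or multiply mapped reads were handled. Per peak the deposited files give a fold enrichment (ratio to local background), −log10 p-values and −log10 q-values, and a score that equals 10 times the −log10 q-value, truncated. Deposited −log10 q-values start at 2.03. Enrichments are not scaled between libraries.

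Depth is not in the files. Reads and background per peak were solved from the enrichment (pseudocount 1) and the Poisson p-value (relative tolerance 0.0001). This form was inferred from the values, and it resolved 7003 of 7045 peaks, including all 505 on scaffolds and MT. A list's most common background was taken as genome-wide. An overlap was 1 bp or more. Intervals are exact (Clopper-Pearson, 95%). The only tests are exact sign-flip permutations over 5 libraries (32 sign patterns), adjusted by Benjamini and Hochberg over 3. Scripts (Python 3.11.15, scipy 1.17.1) were tested on simulated data.

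Densities use the span between the first and last peak, since no sequence lengths were used. Mitochondrial genes came from the RefSeq table of GRCm38.p6, whose 17 genes on unnamed sequences were not used. Assignment of scaffolds to chromosomes follows mm10 naming. The peaks, lists and measures were chosen with earlier results of these data known. Sequences described were MT and the 8 scaffolds with the most peaks. Regions named by rule were those in all 5 lists (at most 12), those in 2 or more lists without KO (none), the strongest peak of each list, and MT peaks (at most 12 regions). Other regions were named after their values were seen. Distances between summits, and reads over background without the pseudocount, were added after the data were seen. The alternatives were equal list sizes, a −log10 q-value minimum of 5, scaffolds alone, leaving out JH584304.1, 2 other overlap rules, and leaving out libraries.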

Additional observations from a re-analysis of the deposited data

Results flagged for a closer look

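The fixed LSK library moved the other way from all other groups in 1 measure, the deposited median enrichment on scaffolds and MT minus that on the chromosomes. This difference was 3.34 in fixed, against -3.96 on average over the 2 WT libraries (lower in both), -4.07 in KO and -5.67 in native. The difference between groups was not tested. The fixed value rested on 11 peaks, 8 of them on JH584304.1, and its genome-wide background was the lowest of the 5 libraries (0.022 reads per position). Without the pseudocount of 1, the median reads over background differed by -124 in fixed, -20.4 in WT 1, -32.9 in WT 2, -9.67 in KO and -24.3 in native, all in 1 direction, so the opposite sign belongs to the deposited enrichment only. Chromosomal peaks of fixed had a median of 4 reads over a background of 0.0293.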

How the results depend on the processing

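Of 86 values recomputed under alternatives, 65 kept their direction or stayed within the reported interval. With 4 or 5 libraries no sign-flip permutation test could pass, so its p-values say nothing about stability. With each list held to 289 peaks, the share off the chromosomes was 29.1% in WT 1, 26.6% in WT 2, 32.2% in KO and 34.3% in native. The share of WT peaks on KO peaks was then 90.1%, the share of KO peaks on another list 93.5%, the width difference -14.5 bp, the enrichment difference -13.9 and the difference in overlap 19.9 points. Without JH584304.1 the shares off the chromosomes were 4.89% in WT 1, 2.58% in WT 2, 1.83% in KO, 3.51% in native and 1.07% in fixed. The KO share on another list was then 36.9%, the enrichment difference 10.8 and the width difference 27.5 bp. Without fixed the enrichment difference was -4.42. Added after seeing the data, reads over background without the pseudocount gave -42.2, and -8.36 also without JH584304.1. With a −log10 q of at least 5 the share off the chromosomes was 20.8% in WT 2 and 8.94% in fixed, and the differences were 11.9 bp, -4.80 and 18.9 points. With a reciprocal overlap of at least 50% the share on another list was 93.8% in WT 1 and 94.3% in native, and WT peaks on KO peaks were 88.1%; with summits within 50 bp they were 93.2%. Leaving out a WT library gave 99.0% to 100%. The cause of these changes was not tested. The sign-flip tests paired values within each library, but no paired analysis between groups was possible because only HSC WT has more than 1 library. Fixed, with 3 reads at the weakest call, limits what could be seen there.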

Other observations

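Local backgrounds of at least 100 times the genome-wide value were found at 148 peaks in WT 1, 142 in WT 2, 189 in KO, 179 in native and 39 in fixed. Scaffold peaks made up 76, 68, 105, 98 and 7 of these, and the start of chromosome 9 (3000018 to 3038275) 58, 57, 71, 65 and 18. That window resembled JH584304.1 in its values: its median enrichments were 3.45, 3.74, 2.94, 3.17 and 8.12, and its median backgrounds 930, 1104, 582, 914 and 244 times the genome-wide value, in the same order of lists. As on JH584304.1, KO lay below both WT libraries by the multiple of background, and fixed was lowest. In reads per position KO had the highest median background in this window, at 668. It was 315 in WT 1, 129 in WT 2, 299 in native and 5.37 in fixed. The other such peaks numbered 13 to 17 per list, among them 7 on chromosome 14 from 19415717 to 19419410 and 4 on chromosome 2 from 98662238 to 98667328 in WT 1. Which sequence these places share was not tested.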
